A study of Mus musculus with 29 samples.

Results

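Gap junction connexins and pannexins were examined across the sorted cell populations of the adult mouse retina. The members were the 6 genes Gjd2, Gjc1, Gja1, Gja10, Panx1 and Panx2, found by symbol among the 24062 genes of the RNA-seq table, and 4 of them passed the filter on low counts, which 14024 genes passed. RNA-seq covered 5 populations with 3 libraries each, and chromatin accessibility was profiled by ATAC-seq, which maps open DNA by transposase insertion, with 2 libraries per population. Bipolar cells (BCs), the interneurons that carry photoreceptor signals to the inner retina, were sorted by GFP knocked into the endogenous Otx2 locus, which is also weakly active in photoreceptors. Pan-BC RNA came from single-sorted Otx2-GFP+/- cells of mice aged P44 to P47. ON-BC and OFF-BC RNA came from Otx2-GFP+/-; Grm6-YFP+/+ mice, aged P43, P48 and P42 in replicates 1, 2 and 3 of both groups, in which the Grm6 promoter drives YFP in ON BCs only. ON BCs were sorted in a single round and OFF BCs were sorted again after the first round, and 1 BC type was probably lost from both gates. The ON-BC sort mixes rod BCs and ON cone BCs, and the authors estimate that most of it is rod BCs. Its values are therefore not levels in ON cone BCs alone. Each pan-BC library held the retinas of 1 mouse, and each ON-BC or OFF-BC library pooled 2 mice. Rods came from Nrl-eGFP mice and blue cones, which are photoreceptors that took a cone fate without the rod factor Nrl, from Nrl-eGFP mice with Nrl knocked out. ATAC-seq added green cones sorted from Opn1mw-GFP mice. The ATAC-seq BC mice were aged P42 to P46. Pan-BC ATAC-seq mice were labelled Otx2-GFP+/-; Grm6-YFP+/+, whereas another description of the same libraries gave no YFP allele. All photoreceptors were P56 and had been profiled for an earlier study, so cell class, study and age cannot be told apart between BCs and photoreceptors.

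Connexins assemble into hexameric hemichannels that dock between neighbouring cells and form gap junctions, the basis of electrical synapses. Pannexins form related large-pore channels in the plasma membrane that release ATP and do not usually dock. In the retina Cx36, the product of Gjd2, is the main neuronal connexin and joins photoreceptors to each other and AII amacrine cells to ON cone BCs, where Cx45, the product of Gjc1, also takes part. Cx43, from Gja1, is the connexin of astrocytes and Müller glia, and Cx57, from Gja10, is that of horizontal cells.

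On GRCm38/mm10, with RefSeq annotation, Gjd2 lies at chr2:114009601-114013619 on the minus strand with 2 exons, and Gjc1 at chr11:102799478-102819686 on the minus strand with 4 transcripts. Gja1 lies at chr10:56377300-56390419 on the plus strand, and Gja10 at chr4:32600865-32602382 on the minus strand, annotated only as 1 coding exon. Panx1 lies at chr9:15005785-15045478 on the minus strand with 5 exons, and Panx2 at chr15:89059726-89070907 on the plus strand with 3 exons.

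The members were the nearest genes to 17 of the 110715 regions of the ATAC-seq table, each 200 bp long. Of these, 4 noncoding regions at Gjd2, Panx1, Panx2 and Gja1 are shown, read from the plus strand of the genome. They were chosen after their values were seen and not by a computed measure. Capitals mark the homeodomain word TAATCC on either strand, which K50 homeodomain factors such as CRX and OTX2 recognise. The words TAATTA and TAATTG, which Q50 homeodomain factors recognise, were also searched and occur in none of the 4.
Gjd2, 6362 bp upstream of the start site, chr2:114019882-114020081: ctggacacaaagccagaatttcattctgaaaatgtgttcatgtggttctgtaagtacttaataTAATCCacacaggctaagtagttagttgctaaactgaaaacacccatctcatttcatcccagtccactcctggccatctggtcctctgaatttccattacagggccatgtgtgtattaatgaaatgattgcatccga
Panx1, 18871 bp downstream of the start site, in an intron, chr9:15026508-15026707: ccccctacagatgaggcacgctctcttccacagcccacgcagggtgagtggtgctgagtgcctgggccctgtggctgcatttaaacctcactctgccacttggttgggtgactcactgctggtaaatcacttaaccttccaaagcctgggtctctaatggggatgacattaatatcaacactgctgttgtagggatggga
Panx2, 4286 bp downstream of the start site, in an intron, chr15:89063913-89064112: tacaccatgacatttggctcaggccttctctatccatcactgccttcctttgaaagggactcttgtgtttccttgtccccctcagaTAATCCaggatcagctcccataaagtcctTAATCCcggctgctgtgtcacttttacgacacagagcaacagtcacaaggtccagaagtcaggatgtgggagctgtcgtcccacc
Gja1, 4062 bp upstream of the start site, chr10:56373139-56373338: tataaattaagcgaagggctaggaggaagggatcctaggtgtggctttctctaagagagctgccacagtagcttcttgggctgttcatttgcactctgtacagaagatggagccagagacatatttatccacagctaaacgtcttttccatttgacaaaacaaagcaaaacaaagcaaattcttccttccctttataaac
The Gjd2 region was more open in ON than in OFF BCs and the Panx1 region was open in ON BCs but nearly closed in OFF BCs. The Panx2 region was most open in cones, and the Gja1 region was open in BCs and nearly closed in photoreceptors. Their values follow below those of the transcripts.

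RNA depth was 12329548 to 26266746 counted reads per library and ATAC depth 4176776 to 12345845 reads in regions. Nrl was 11476 to 16599 normalised counts in rods and 485.5 to 764.1 in blue cones, and Grm6 was 13260.4 to 13835 in ON BCs and 145, 64.9 and 593 in OFF-BC replicates 1, 2 and 3. The libraries of sorted cells held reads of genes used as markers of other types. Whether these reads came from other cells was not tested. The 5 rod markers summed to 16126 to 21728 normalised counts in pan-BC and ON-BC libraries and to 765 to 1216 in OFF-BC libraries. The 5 cone markers summed to 40493 to 66190 in pan-BC and 4047 to 4666 in ON-BC libraries, and OFF-BC replicate 3 stood apart from the other 2 at 89734 against 22366 and 20732. Gnat2 carried most of the sum in ON-BC libraries (2794 to 3631) and in OFF-BC replicates 1 and 2 (16557 and 13813). Opn1sw carried most of it in pan-BC libraries (28147 to 50740) and in OFF-BC replicate 3 (55813). The cone sums therefore rest on different genes in different libraries. In rods the cone markers summed to 10130 to 10297, and none of the 5 rod or 5 cone markers was at 0 in every library of any population.

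All 4 members that passed the filter were higher in pan-BCs than in rods, and 3 of them (Gjd2, Gjc1 and Panx1) were also higher in pan-BCs than in blue cones. Panx2 was the only 1 of the 4 that differed between the photoreceptor populations at the threshold used, and it was lower in rods. Gjc1 and Panx1 were lower in ON-BCs than in OFF-BCs. Calls were made with limma on log2(normalised count + 1), with differences up to 2-fold as the null, at a Benjamini-Hochberg adjusted p of 0.05 over all genes tested. All adjusted p-values here come from that test unless another is named. Of all genes tested, 27.8% were called higher and 15.8% lower in pan-BCs than in rods, 22.7% and 13.7% in pan-BCs than in blue cones, 4.63% and 11.3% in rods than in blue cones, and 2.95% and 3.60% in ON-BCs than in OFF-BCs. The median log2 difference of the 4 members was 5.08, 3.93, -0.59 and -2.07 in these comparisons, against 0.21, 0.16, -0.00 and -0.015 over all genes tested. Gjc1, Panx1 and Panx2 held 4, 1 and 7 rod reads and passed the filter through other populations. Their place above rods was thus in part set by the filter. Gja1 and Gja10, which did not pass, held 0.686 and 1.6 times the rod level in pan-BCs by pooled reads. With scaling to library totals, the share of called genes that were higher in pan-BCs than in rods moved from 63.8% to 74.0%. Pan-BC libraries served in both BC comparisons and rods and blue cones in 2 each, so the comparisons are not independent. In sorted pools, fewer cells of a type and less RNA per cell cannot be told apart.

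**Figure D1:**
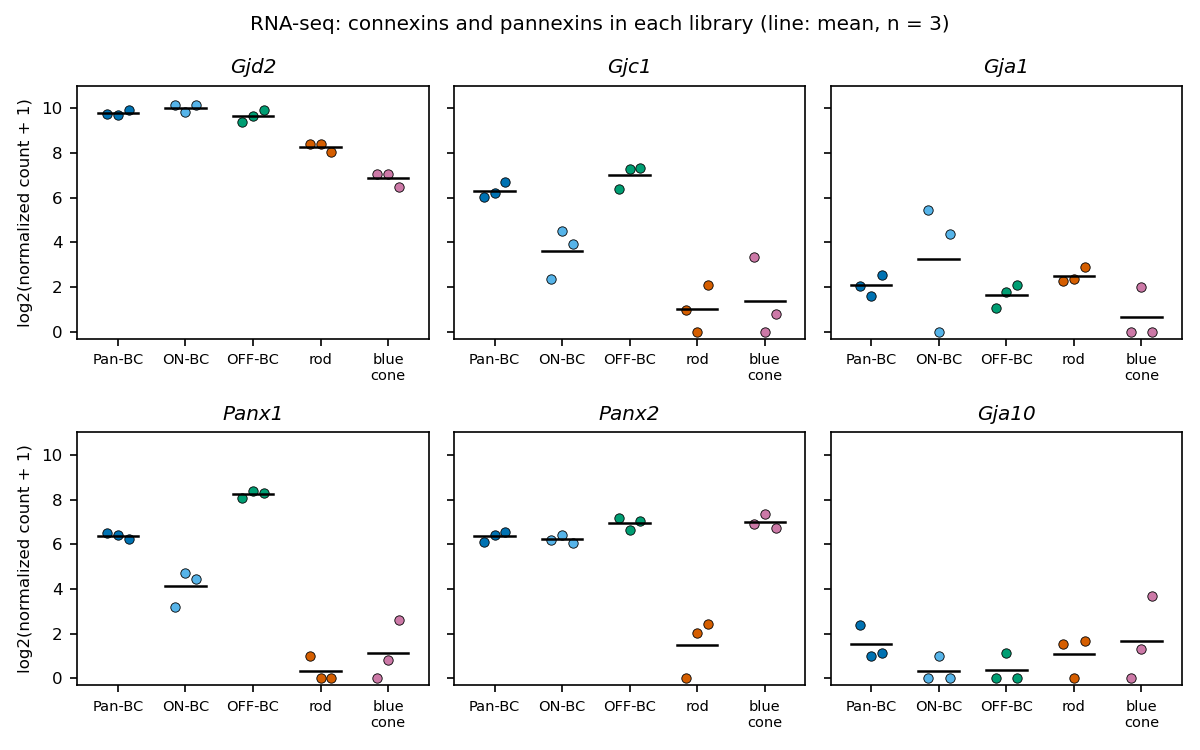
RNA-seq log2(normalised count + 1) of the 6 members (y axis) in each of the 15 libraries (points) by population (x axis), with the mean of 3 libraries on that scale (lines). In normalised counts Gjd2 ran from 87.3 to 1132 with every library above 0, Gjc1 and Panx1 were highest in OFF-BCs, and Panx2 was low in rods alone.

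Gjd2 encodes Cx36 and was above the other 5 members in every BC and rod library, also per kilobase of exon. Its normalised count was 853, 838 and 972 in pan-BC replicates 1 to 3. ON-BC libraries held 1123, 899.5 and 1132, and OFF-BC libraries 660.5, 812 and 967. Rods held 339.6, 334 and 262, and blue cones 134, 133 and 87.3. The BC libraries were all above the rods and the rods all above the blue cones, whereas the ranges of the BC populations overlapped. The pan-BC mean was 888 ± 73.0 (SD, n = 3), against 312 ± 43.5 in rods and 118 ± 26.6 in blue cones. The log2 difference was 1.51 ± 0.18 (SE) over rods (95% confidence interval 1.13 to 1.89, adjusted p = 0.0142) and 2.92 ± 0.18 over blue cones (adjusted p = 6.74e-08). The call against rods was lost without pan-BC replicate 3 (adjusted p = 0.0545) or without rod replicate 3 (adjusted p = 0.0738).

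Ordered by mean, Gjd2 fell from ON-BCs (1051 ± 132) to pan-BCs, OFF-BCs (813 ± 153), rods and blue cones. ON-BCs and OFF-BCs differed by 0.38 ± 0.18 on the log2 scale (95% confidence interval -0.00 to 0.76, adjusted p = 1.0). Pan-BCs lay between them, at -0.24 against ON-BCs and 0.14 against OFF-BCs, and neither difference was called. Of all genes, 1.06% were called between pan-BCs and ON-BCs and 3.37% between pan-BCs and OFF-BCs. The step from OFF-BCs to rods (log2 difference 1.37, adjusted p = 0.0627) and that from rods to blue cones (1.41 ± 0.18, 95% confidence interval 1.03 to 1.79, adjusted p = 0.103) did not pass the test against a 2-fold change. Against no difference the rod to blue cone step had an adjusted p of 4.44e-06, and 57.5% of all genes were called in that test at an adjusted p of 0.05. ON-BCs exceeded rods by 1.75 (adjusted p = 0.00108). The antisense neighbour A530058N18Rik, a long noncoding RNA on the plus strand at chr2:114013565-114032292 that shares 55 exon bases with Gjd2, was chosen after its position was seen. It averaged 3040 ± 97.4 in pan-BCs, 3126 in ON-BCs, 3698 in OFF-BCs, 1002 in rods and 1049 in blue cones. Its blue cones and rods were at a like level, and its log2 difference was 1.61 ± 0.13 over rods (adjusted p = 0.000373). Since the strand setting of the counting is not given in the sources used here, reads of the shared bases cannot be assigned to either gene.

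Gjc1 encodes Cx45 and was highest in OFF-BCs. Its normalised count was 82.7, 157 and 158 in OFF-BC, 63.8, 72.6 and 103 in pan-BC, and 4.13, 21.6 and 14.4 in ON-BC libraries. Rods held 0.970, 0 and 3.24, and blue cones 9.03, 0 and 0.740, from 4 and 13 reads in all. Every OFF-BC and pan-BC library was above every ON-BC library, and the ON-BC and blue cone ranges overlapped. The pan-BC mean of 79.7 ± 20.4 exceeded rods by 5.28 ± 0.75 on the log2 scale (adjusted p = 5.74e-05) and blue cones by 4.93 ± 0.75 (adjusted p = 0.000183). By pooled reads, pan-BCs held 57.6 times the rod level (95% counting interval 22.2 to 213). ON-BCs were below OFF-BCs by a log2 difference of -3.40 ± 0.75 (95% confidence interval -4.99 to -1.82, adjusted p = 0.0421). That call held in 8 of 17 alternatives, with adjusted p from 0.000751 to 0.25, and was lost on leaving out any 1 of ON-BC replicates 1 and 3 or OFF-BC replicates 1, 2 and 3. With the replicate number as a block the adjusted p was 0.056 over all populations and 0.0421 for ON-BCs and OFF-BCs alone.

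OFF-BCs exceeded pan-BCs in Gjc1 by 0.70 on the log2 scale and pan-BCs exceeded ON-BCs by 2.71 (adjusted p = 0.734), neither of which was called. ON-BCs exceeded blue cones by 2.22 (adjusted p = 0.155) and rods by 2.58 (adjusted p = 0.0606), and OFF-BCs exceeded rods by 5.98 (adjusted p = 1.16e-05). Of all genes, 41.7% were called between ON-BCs and rods, 34.8% between ON-BCs and blue cones, 42.6% between OFF-BCs and rods and 35.5% between OFF-BCs and blue cones. Rods and blue cones differed by -0.35 ± 0.75, and at these counts no difference was detectable.

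Gja1 encodes Cx43 and did not pass the filter, so it was not tested. Its normalised count was 43.3, 0 and 19.5 in the ON-BC libraries, from 42, 0 and 19 reads. In the other 12 libraries it was at most 6.48. ON-BC replicates 1 and 3 stood above the rest, with replicate 2 at 0. The 8 Müller glia markers, none of them at 0, summed to 6547, 6572 and 7773 in the ON-BC libraries, and the 4 astrocyte markers to 31.0, 56.8 and 12.3 with Pax2 at 0. Clu carried most of these sums, at 5120, 4889 and 6129.5 in the ON-BC libraries, and is not particular to Müller glia. Of the other markers, Rlbp1 was 96.0, 193 and 240.1 and Aqp4 was 29.9, 76.4 and 48.2 in the same libraries. Glul was 646, 842 and 698 and Slc1a3 was 45.4, 71.5 and 34.9. Apoe was 356, 264 and 377 and Sox9 was 35.1, 14.7 and 25.7, both lowest in replicate 2. Dkk3 lay between 218.8 and 221.4. The markers therefore did not share an order over these libraries. The part of glial RNA in the Gja1 counts was not tested.

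Gja10 encodes Cx57 and also stayed below the filter. It was at most 4.26 in 14 libraries and 11.8, from 16 reads, in blue cone replicate 3. Only the coding exon was annotated for it. Of the 5 horizontal cell markers, Prox1, which BCs also express, held 3359 to 3963 in pan-BC libraries, nearly all of the list's sum. The list summed to 3381 to 4062 in pan-BC libraries. ON-BC libraries held 3575 to 3871, OFF-BC 1215 to 1350, rods 28.7 to 57.3 and blue cones 54.6 to 90.3. The defining horizontal cell factors Lhx1 and Onecut1 were both at 0 in pan-BC replicate 2, in ON-BC replicate 1 and in the 3 rod libraries. Both had their highest mean in blue cones, Onecut1 at 8.20 (range 1.52 to 14.1) and Lhx1 at 2.24 (0 to 4.51). The remaining markers of the list did not. Onecut2 averaged 87.2 in ON-BCs, 38.3 in pan-BCs, 37.3 in OFF-BCs, 25.0 in blue cones and 2.39 in rods. Calb1 averaged 30.5 in pan-BCs, 22.6 in OFF-BCs, 15.1 in ON-BCs, 13.3 in rods and 7.98 in blue cones. The part of horizontal cell RNA in the Gja10 counts was not tested.

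Panx1, which encodes a channel for ATP release, had the widest difference between BC subclasses. Its normalised count was 268, 333 and 308 in OFF-BC libraries, 89.35, 84.7 and 73.4 in pan-BC, and 8.26, 25.5 and 20.5 in ON-BC. Rods held 0.970, 0 and 0, a single read in all, and blue cones 0, 0.759 and 5.18. The OFF-BC, pan-BC and ON-BC ranges were separate from one another and from both photoreceptor populations. ON-BCs (18.1 ± 8.87, SD, n = 3) were below OFF-BCs (303 ± 32.6) by a log2 difference of -4.12 ± 0.56 (95% confidence interval -5.31 to -2.93, adjusted p = 0.000658), called in 17 of 17 alternatives. Pan-BCs (82.5 ± 8.2) exceeded rods by 6.05 ± 0.56 (95% confidence interval 4.86 to 7.25, adjusted p = 3.34e-07) and blue cones by 5.23 ± 0.56 (adjusted p = 4.34e-06).

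By pooled reads OFF-BCs held 886 times as much Panx1 as rods (95% counting interval 159 to 35053) and ON-BCs 53.4 times (9.19 to 2148), where the width of the intervals came from the 1 rod read. ON-BCs also exceeded rods (log2 difference 3.80, adjusted p = 0.000241) and blue cones (2.97, adjusted p = 0.00516). Pan-BCs lay between OFF-BCs (-1.86, adjusted p = 0.95) and ON-BCs (2.26, adjusted p = 0.787) without a call against either. Rods and blue cones differed by -0.82 ± 0.56, which was not called. The OFF-BC library with the most cone marker RNA, replicate 3, held the middle Panx1 value of its group. The part of cone RNA in the Panx1 values was not tested.

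Panx2 encodes a pannexin found mainly in neurons and was low in rods but not in blue cones. Its normalised count was 119, 163 and 105 in blue cones, and 0, 3.07 and 4.32 in rods. It was 68.1, 84.7 and 91.8 in pan-BC, 72.2, 84.3 and 65.7 in ON-BC, and 143, 98.5 and 131 in OFF-BC libraries. Rods lay below every other library, from 7 reads in all. Rods were below blue cones by a log2 difference of -5.52 ± 0.46 (adjusted p = 3.43e-07), and pan-BCs exceeded rods by 4.88 ± 0.46 (95% confidence interval 3.91 to 5.84, adjusted p = 6.31e-07). By pooled reads pan-BCs held 34.0 times the rod level (95% counting interval 16.2 to 85.5).

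Ordered by mean, Panx2 fell from blue cones (129 ± 30.3) to OFF-BCs (124 ± 23.1), pan-BCs (81.5 ± 12.2), ON-BCs (74.05 ± 9.43) and rods. No pair of neighbours above rods was called. Blue cones and OFF-BCs differed by 0.05 on the log2 scale, OFF-BCs exceeded pan-BCs by 0.60 and pan-BCs exceeded ON-BCs by 0.13. Pan-BCs were at -0.64 ± 0.46 against blue cones (95% confidence interval -1.61 to 0.32, adjusted p = 1.0) and ON-BCs at -0.73 ± 0.46 against OFF-BCs (95% confidence interval -1.69 to 0.23, adjusted p = 1.0), so the intervals include a 2-fold difference in both cases. ON-BCs exceeded rods by 4.74 (adjusted p = 9.95e-07) and OFF-BCs by 5.47 (adjusted p = 1.06e-07). Cone marker RNA was highest in blue cones as well, and the OFF-BC sums of 22366, 20732 and 89734 stood beside Panx2 values of 143, 98.5 and 131. Its part in the BC values was not tested.

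**Figure D2:**
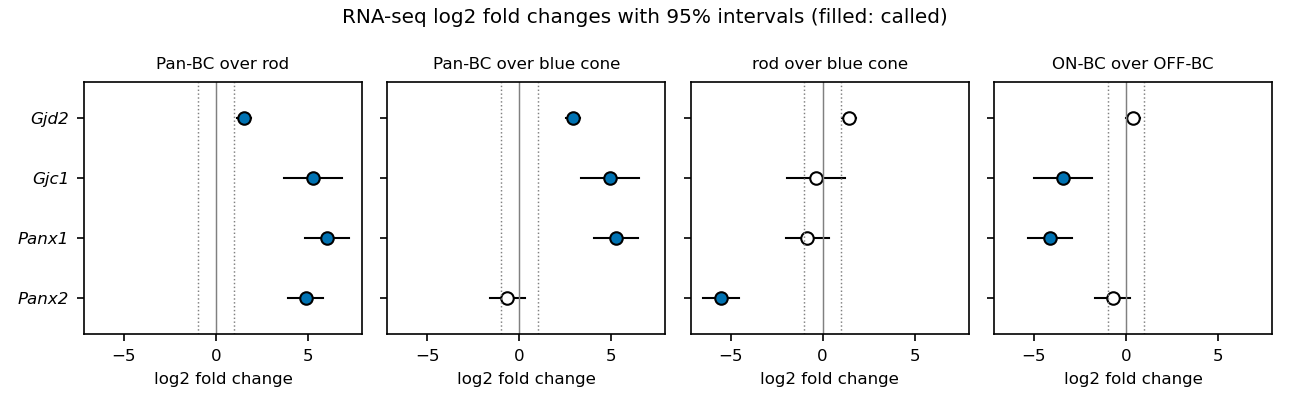
Log2 fold changes (x axis) of the 4 tested members (y axis) in the 4 main RNA comparisons, with 95% confidence intervals from the limma fit, 0 (solid line) and the 2-fold limits (dotted lines). Filled points were called and open points were not. The differences over rods run from 1.51 for Gjd2 to 6.05 for Panx1, and the ON-BC minus OFF-BC differences from -4.12 for Panx1 to 0.38 for Gjd2.

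Per kilobase of exon, the scale on which genes may be compared, Gjd2 stood at 308 normalised counts in pan-BCs, 365 in ON-BCs, 282 in OFF-BCs and 108 in rods. The next member was Panx1 at 146 in OFF-BCs and 39.8 in pan-BCs, and Panx2 at 21.7 in ON-BCs. In blue cones Gjd2 (41.0 per kilobase) and Panx2 (37.8 per kilobase) were at a like level. Gjc1 was at 44.9 per kilobase in OFF-BCs and 27.0 in pan-BCs.

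Among the other 17 mouse connexin and pannexin genes, 2 passed the filter, and both were called higher in pan-BCs than in rods and than in blue cones. These 2 also passed through BC libraries, so the limit set by the filter holds for them as well. Gjb1, which encodes Cx32, held 31.9, 29.3 and 18.4 normalised counts in pan-BC libraries and 0 in all 3 rod libraries. Pan-BCs therefore held at least 26.3-fold more than rods, taking 3 reads over the rod libraries as the floor. Gjb1 was also called over blue cones (adjusted p = 1.22e-05), which held 3 reads. It was 27.9, 21.6 and 29.8 in ON-BC and 44.7, 20.4 and 26.5 in OFF-BC libraries, a log2 difference of -0.14 that was not called.

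Of the 15 family genes below the filter, 5 were at 0 in all 15 libraries, Gjb2, Gjb5 and Panx3 among them. Gje1 was chosen after its values were seen. It held 8.73, 8.20 and 22.7 in rods, from 38 reads, and 0 in every pan-BC, ON-BC and blue cone library.

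The genes whose log2 levels were most alike to each member over the 15 libraries were taken from 14020 tested genes, as a description without a test. For Gjd2 they were Mtss1 (Pearson r = 0.99), Tial1 (0.987) and Nlgn2 (0.984), a postsynaptic adhesion molecule. Nlgn2 averaged 1092 in pan-BCs, 418 in rods and 169.6 in blue cones. For Gjc1, Pde5a (0.968) and Kcna1 (0.967), a voltage-gated potassium channel, were among them. Kcna1 averaged 169 in OFF-BCs and 22.8 in ON-BCs. For Panx1 they were Nnat (0.989), 2700069I18Rik (0.989) and Ppp1r17 (0.989), and Nnat averaged 11290.5 in OFF-BCs and 491 in ON-BCs. For Panx2 they were Cap2 (0.992), Nipal2 (0.982) and Nfkb1 (0.981). Cap2, an actin regulator, averaged 13.6 in rods and 1496 in blue cones. Libraries of one population share a protocol and depth, so each coefficient rests mainly on the 5 population means.

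The partners of these channels, 20 genes that include scaffolds, kinases, receptors and other large-pore channels, were described in the same way, and 16 passed the filter. Against rods 8 were higher and 1 lower in pan-BCs (median log2 difference 1.29), and against blue cones 5 were higher and 3 lower (0.47). Between rods and blue cones 3 were higher and 3 lower in rods (-0.45), and 4 were higher and 1 lower in ON-BCs than in OFF-BCs (0.57). The shares of all genes called higher and lower were 27.8% and 15.8%, 22.7% and 13.7%, 4.63% and 11.3%, and 2.95% and 3.60% in the same order. Their medians were 0.21, 0.16, -0.0047 and -0.015. The partner counts were not tested against these shares. Camk2a and Camk2b are subunits of CaMKII, a kinase that phosphorylates Cx36. The other subunits on the list, Camk2d and Camk2g, were not low in rods. They averaged 3917 and 1616 in pan-BCs, 8368 and 1929 in rods and 9701 and 3367 in blue cones. Neither was called between pan-BCs and rods. Camk2a averaged 71.0 in pan-BCs, 0.360, from 1 read, in rods and 2.01 in blue cones. Camk2b averaged 7478 in pan-BCs, against 153 in rods and 24413 in blue cones. It was higher in pan-BCs than in rods (log2 difference 5.60, adjusted p = 5.31e-15) but lower than in blue cones (-1.71, adjusted p = 4.38e-05). Drd4, the dopamine receptor through which light reduces photoreceptor coupling, averaged 41.5 in pan-BCs, 3950.5 in rods and 1084.5 in blue cones. It was lower in pan-BCs than in rods by a log2 difference of -6.67 ± 0.30 (adjusted p = 2.7e-11), and the 5 rod markers were at 17806 to 21728 in the same pan-BC libraries.

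Between BC subclasses, Drd4 was higher in OFF-BCs, at 124 against 20.7 in ON-BCs (log2 difference -2.56 ± 0.30, adjusted p = 0.00125). Cone marker RNA was higher in OFF-BCs as well, at 20732 to 89734 against 4047 to 4666 in ON-BCs. Rod marker RNA was lower in OFF-BCs, at 765 to 1216 against 16126 to 19611. Pan-BC libraries had cone sums of 40493 to 66190 beside a Drd4 mean of 41.5. The part of photoreceptor RNA in the Drd4 difference was not tested. Adcy1, a calcium-stimulated adenylyl cyclase, averaged 1387 ± 192 in ON-BCs and 86.5 ± 51.7 in OFF-BCs (4.16 ± 0.28, adjusted p = 4.48e-07). Tjp3, which encodes the scaffold ZO-3, averaged 77.8 ± 23.9 in ON-BCs and 13.4 ± 4.13 in OFF-BCs (2.45 ± 0.44, adjusted p = 0.0376). Cnst, which encodes consortin, a receptor for connexin transport, averaged 1919 ± 27.9 and 744 ± 152 (1.39 ± 0.12, adjusted p = 0.0475).

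**Figure D3:**
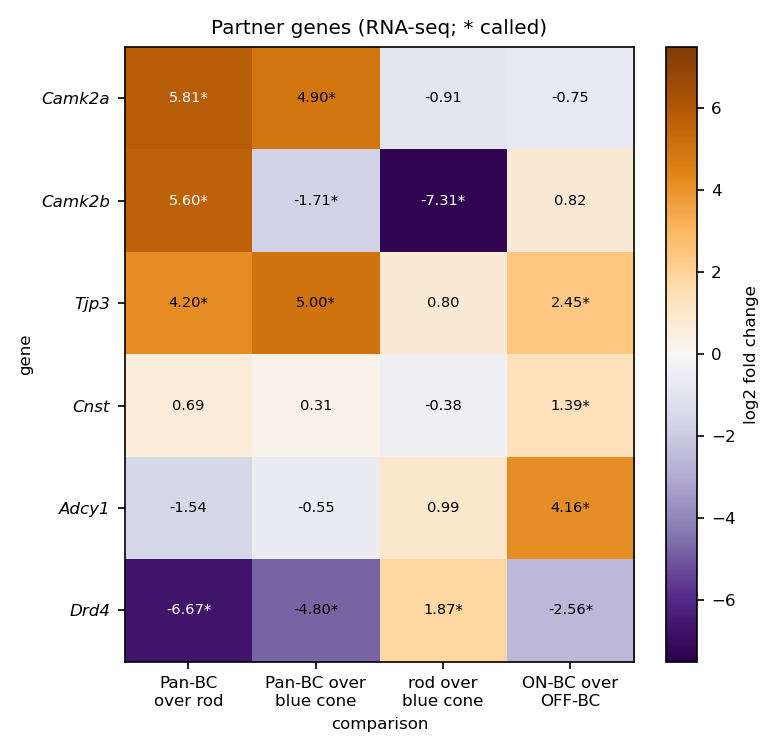
Log2 fold change (colour and printed value) of 6 of the named partner genes (rows) in the 4 main RNA comparisons (columns), with an asterisk where the difference was called. Drd4 runs from -6.67 in pan-BCs over rods to 1.87 in rods over blue cones, and Adcy1 has the widest ON-BC over OFF-BC difference of the 6, at 4.16.

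All 17 regions nearest to a member passed the filter among 108448 tested: 5 at Panx1, 4 at Gja1, 3 each at Gjd2 and Panx2, 2 at Gjc1 and none at Gja10. Against rods, 11 were called more open and 0 less open in pan-BCs, with a median log2 difference of 3.09 against 1.16 over all regions. Of all regions, 40.3% were more open and 11.2% less open. Against blue cones, 6 were more open and 1 less open (28.8% and 7.13% of all regions), and against green cones 10 and 0 (24.1% and 8.00%). The green cone count fell to 4 without pan-BC replicate 2 and to 6 without green cone replicate 1. Rods had 0 more open and 3 less open regions than blue cones (1.46% and 8.56%). ON-BCs had 2 more open and 0 less open regions than OFF-BCs (4.58% and 2.80%). The share of all called regions that were more open in ON-BCs was 62.1%, against 51.6% with TMM scaling and 47.6% with scaling to library totals.

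At Gjd2 the promoter region was highest in rods and the upstream regions were highest in BCs. The promoter region, centred 66 bp upstream of the start site, was open in every population, at 170 and 242 normalised counts in pan-BC, 218 and 190.3 in ON-BC and 219.6 and 242 in OFF-BC libraries. Rods held 515 and 465.5, blue cones 286 and 277.5, green cones 301 and 222.5. Rods were above all other libraries there, but the pan-BC minus rod log2 difference of -1.26 ± 0.19 was not called (adjusted p = 0.159). The region 6362 bp upstream, printed above, lies in an intron of A530058N18Rik and held 129.6 and 182.5 in pan-BC, 218 and 284 in ON-BC and 72.8 and 38.9 in OFF-BC libraries, against 20.3 and 10.2 in rods and 13.0 and 10.1 in blue cones. Pan-BCs exceeded rods by 3.33 on the log2 scale (adjusted p = 3.78e-05), blue cones by 3.64 (adjusted p = 3.1e-05) and green cones by 3.11 (adjusted p = 0.000336). ON-BCs exceeded OFF-BCs by 2.20 ± 0.39 (adjusted p = 0.0442), which held in 9 of 15 alternatives with adjusted p from 0.000531 to 0.36. A second upstream region, at 13647 bp, held 32.0 and 46.2 in pan-BCs and 2.34 and 5.42 in rods (3.09, adjusted p = 0.0219). It also lies in an intron of A530058N18Rik, and the promoter region overlaps an exon of that gene. Both genes share 55 exon bases at their start sites, so giving the upstream regions to Gjd2 rests on a small distance.

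At Panx1 the intronic region at 18871 bp, printed above, was more open in the subclass with less Panx1 RNA. It held 92.6 and 107 in ON-BC, 54.4 and 59.3 in pan-BC and 5.39 and 1.95 in OFF-BC libraries. Photoreceptor libraries lay between 0 and 5.63, so OFF-BCs were within the photoreceptor range. ON-BCs exceeded OFF-BCs by 4.53 ± 0.70 (adjusted p = 0.00262), called in 15 of 15 alternatives. Pan-BCs exceeded rods by 4.83 (adjusted p = 9.41e-05), blue cones by 3.95 (adjusted p = 0.00157) and green cones by 3.48 (adjusted p = 0.00666). A second intronic region, at 16220 bp, was open at a like level in both subclasses, with 74.7 and 80.5 in ON-BC and 79.5 and 78.9 in OFF-BC libraries, and 0 and 2.03 in rods. It was called in pan-BCs over rods (5.55, adjusted p = 6.21e-07).

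The Panx1 start region, centred 114 bp downstream of the start site, held 75.2 and 109.5 in pan-BC, 94.1 and 105 in ON-BC and 75.4 and 73.0 in OFF-BC libraries. Rods held 1.56 and 2.03, blue cones 25.9 and 22.4, green cones 6.15 and 23.9. Pan-BCs exceeded rods by 5.04 (adjusted p = 1.04e-06), and rods were below blue cones by a log2 difference of -3.17 (adjusted p = 0.00281). Rods were the lowest population there and also, with 1 read, for Panx1 RNA. The remaining Panx1 regions, at 29741 bp downstream and at 17661 bp upstream in an intron of Hephl1, were also called in pan-BCs over rods (3.52, adjusted p = 6.51e-05, and 2.57, adjusted p = 0.000195).

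At Panx2 the intronic region at 4286 bp, printed above, was most open in cones. It held 92.0 and 98.3 in blue cones, 49.9 and 52.1 in green cones, and 37.7 and 33.1 in OFF-BCs. Pan-BCs held 12.8 and 7.98, ON-BCs 5.97 and 8.79, and rods 5.45 and 0.678. Blue and green cones were above every BC and rod library. Rods were below blue cones by a log2 difference of -4.87 ± 0.56 (adjusted p = 5.6e-05) and pan-BCs by -3.11 ± 0.56 (adjusted p = 0.00322). The pan-BC to green cone difference (-2.22, adjusted p = 0.0611) and the ON-BC to OFF-BC difference (-2.14, adjusted p = 0.208) were not called. The other 2 Panx2 regions, at the promoter and first exon, held 10.3 to 54.2 and 10.2 to 50.6 and were called in none of the 5 comparisons.

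The 3 upstream Gja1 regions were more open in every BC library than in any photoreceptor library. The region 1428 bp downstream of the start site held 5.39 and 12.7 in OFF-BCs, which overlapped green cones (0 to 6.92). The region 4062 bp upstream, printed above, held 44.8 and 74.1 in pan-BC, 41.8 and 61.5 in ON-BC and 51.2 and 25.3 in OFF-BC libraries. Both rod libraries were at 0, and blue and green cone libraries lay between 0 and 4.61. It was called in pan-BCs over blue cones (4.95, adjusted p = 0.000522) and green cones (4.63, adjusted p = 0.00144). The 4 regions were all called in pan-BCs over rods, with adjusted p from 3.29e-05 to 0.0311. The call at 1428 bp downstream, the weakest of them, held in only a part of the alternatives. Its log2 difference over rods ran from 1.38 to 3.54 there. The 2 Gjc1 regions, both at annotated start sites, held 4.56 to 20.5 and 5.97 to 32.4 and were called in none of the 5 comparisons.

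**Figure D4:**
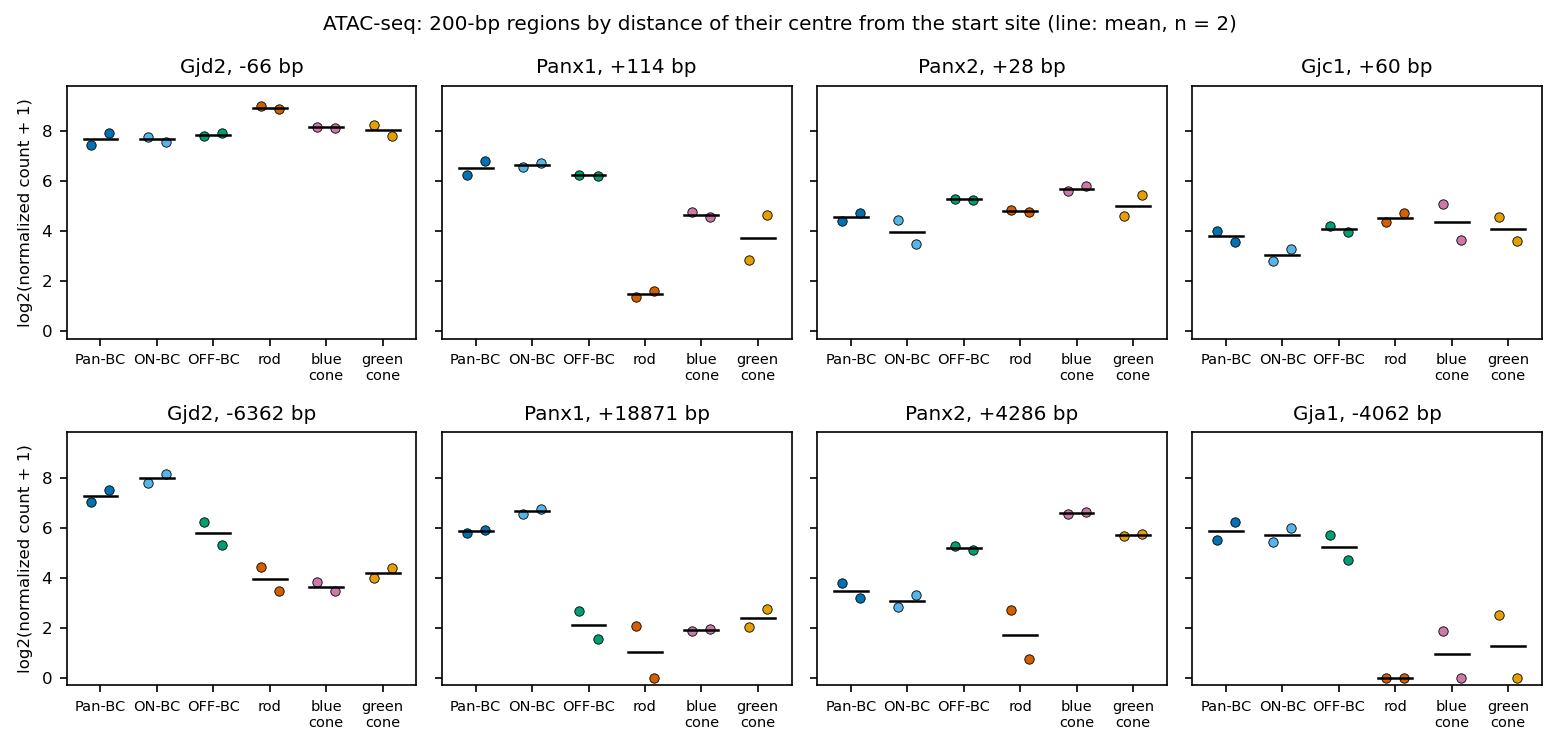
ATAC-seq log2(normalised count + 1) (y axis) in 8 of the 17 regions, titled by the distance of their centre from the start site, in each of the 12 libraries (points) by population (x axis), with the mean of 2 libraries on that scale (lines). In normalised counts the Panx1 region at 18871 bp was at 5.39 and 1.95 in OFF-BCs against 92.6 and 107 in ON-BCs, and the Panx2 region at 4286 bp was highest in blue cones.

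Peaks called by the authors in each of 14 libraries, 2 double-sorted green cone libraries included, overlapped the promoter window in 43 of 84 pairs of gene and library. The Gjd2 promoter had a peak in 14 of 14 libraries. Panx1 had one in 9, namely all 6 BC libraries, both blue cone libraries and 1 green cone library, and in neither rod library. Gjc1 and Panx2 had one in 10 libraries each, and Gja1 and Gja10 in 0. With a -log10 q of at least 10 the count was 14 for Gjd2, 7 for Panx1, 3 for Panx2 and 0 for Gjc1. The libraries held 29410 to 94468 peaks.

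The word TAATCC occurred in 5 of the 17 regions (29.4%) and in 21.8% of all 110715 regions of the same length. The E-box CANNTG, read alike on both strands and bound by basic helix-loop-helix factors, occurred in 11 of 17 (64.7%) and in 68.8% of all regions. The words TAATTA and TAATTG occurred in 0 of 17, against 5.2% and 6.88% of all regions. The Panx2 region at 4286 bp held TAATCC 2 times, which 3.15% of all regions did, and the Panx1 region at 18871 bp held none of the 3 homeodomain words and 2 E-boxes. A match to a word is a description of the sequence and not a measured binding site.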

How the data were processed

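RNA-seq (15 libraries) and ATAC-seq (12 libraries in the region table, 14 with peaks) of sorted mouse retinal cells were analysed from the deposited tables. RNA libraries were made with an ultra-low input kit and sequenced as single-end reads, with the strand setting of counting not given in the sources used here. The submitters' processing notes name STAR 2.7.0d, HTSeq, Bowtie2 2.2.5, featureCounts, HOMER 4.8 and MACS2 2.1.1, and the build is GRCm38/mm10. The deposited gene and region tables hold signal values that the authors made by dividing read counts by library size factors. The deposited peak files hold the peaks MACS2 called in each library, with their -log10 q. All RNA (230384 of 230384) and ATAC (1212862 of 1212862) values above 0 were whole multiples of 1 read's worth within 0.01 read, so reads were recovered. Genes and regions were filtered with filterByExpr on these reads.

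limma 3.58.1 (R 4.3.3) was fitted on log2(normalised count + 1) in 1 model per assay, with 1 level per population, and tested two-sided against a log2 fold change of 1 with a trended prior. The pseudocount of 1 understates changes of low genes. p-values were adjusted over all features tested, and they measure only the spread between these libraries. edgeR 4.0.16 and DESeq2 1.42.0 on the recovered reads were alternatives, with other pseudocounts, filters and scalings, a test against no difference, a replicate block, and each library left out. Ratios of pooled reads carry 95% exact binomial intervals for counting error only, and 3 reads over a population served as the floor for a gene at 0. Regions were given to the gene whose start site was nearest. Each promoter window began 1000 bp before a start site and ended 100 bp past it, and a peak overlapping by at least 1 bp counted.

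All 6 members were named. Other family genes were named where they passed the filter. Partners were named where called between ON-BCs and OFF-BCs or among the 5 widest called differences of pan-BCs over rods or blue cones, and likeness was the 3 highest Pearson correlations. Camk2d and Camk2g were named beside Camk2a and Camk2b as subunits of the same kinase. The members and lists were chosen with earlier results of these data known. Some genes that these rules select are not reported here. Protein sequences were not used here. Promoter sequences are not printed.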

Additional observations from a re-analysis of the deposited data

How the results depend on the processing

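Counts of called members kept their direction, but several moved by more than 1.5 times, and except where stated the cause was not tested. For RNA, 1 member was called between rods and blue cones, against 2 in the test against no difference and 2 with edgeR. Between ON-BCs and OFF-BCs 2 were called, against 1 each with a pseudocount of 0.5, without the filter, with DESeq2 and with the replicate block over all populations, and 1 to 3 on leaving out single libraries. The count of 3 came without ON-BC replicate 2, when Gja1 passed the filter and was called. It was 1 without ON-BC replicate 1 or 3 or any OFF-BC replicate. The direction of Gjc1 between rods and blue cones turned, with log2 differences from -1.04 to 0.62 on leaving out single libraries. For regions, pan-BCs against blue cones had 7 calls, against 14 in the test against no difference and 12 with edgeR. Pan-BCs against green cones had 10, against 4 to 8 on leaving out single libraries. Rods against blue cones had 3, against 7 in the test against no difference and 1 with a pseudocount of 10. ON-BCs against OFF-BCs had 2, against 5 in the test against no difference, 1 each with a pseudocount of 0.5, TMM scaling and scaling to library totals, and 1 to 2 on leaving out single libraries. Promoter peaks fell from 43 to 24 with a -log10 q of at least 10. For single genes, 233 alternative values kept their call and direction, 11 were weaker, 2 stronger and 2 reversed, and for regions 483, 44, 14 and 0. Scaling to library totals moved the median log2 difference of all genes from 0.21 to 0.55 for pan-BCs over rods and from 0.16 to 0.44 over blue cones. ON-BC and OFF-BC libraries of 1 replicate number came from mice of the same age and may share a sort, which the labels do not state. Their RNA deviations correlated at -0.076, 0.222 and -0.065, and not every library correlated best with its own number. A replicate block fitted to these 2 groups alone left 2 genes called, and over all populations the block left 2 regions called between them. Low read numbers limit what can be seen for Gja1 and Gja10, which were not tested and gave no alternative values beside the call named above.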
